A study of Homo sapiens with 6 samples.

Results

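hsa-miR-191-5p and hsa-miR-425-5p are the main products of a pair of neighbouring miRNA hairpins on chromosome 3, and both were looked up by name in the miRNA read counts of extracellular vesicles (EVs). Both names were present among the 471 miRNA names counted. Of the 2, only miR-191-5p passed the filter on low counts, which kept 105 names in all, and 464 names had at least 1 read. The EVs were taken from the medium of spheroids on day 14 of culture, all grown from Cal27, an established line of human oral squamous cell carcinoma (OSCC). EVsoft were released by spheroids on a soft matrix of 3 mg/mL Matrigel and EVstiff by spheroids on a stiff matrix of 12 mg/mL Matrigel, with 3 libraries in each group. Matrigel is a basement membrane extract, so a higher concentration changed the amount of matrix protein together with stiffness, and these cannot be told apart here. The labels name no other treatment, so the results are those of 1 line.

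A miRNA is cut from a hairpin transcript and guides Argonaute proteins to messenger RNAs, mostly through its seed, bases 2 to 8 from the 5′ end. The hairpins of miR-191 and miR-425 lie in introns of their host gene DALRD3, are thought to be made from a common transcript, and their 5′ arms are found in many tissues. miR-191-5p and miR-425-5p are also in common use as reference miRNAs, against which others are measured by qRT-PCR in serum, plasma and EVs. The data therefore bear on whether the levels of either member differed with matrix stiffness, and how much they varied between libraries compared with other miRNAs of like abundance.

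The sequences below are those of the miR-191 hairpin and of the arms of both hairpins that the RefSeq table for GRCh38.p14 holds, shown because the counts are given per arm. The seed is in capitals in the mature arms, and both arms are in capitals in the hairpin.
hsa-miR-191-5p: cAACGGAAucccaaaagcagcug
hsa-miR-191-3p: gCUGCGCUuggauuucgucccc
hsa-miR-425-3p: aUCGGGAAugucguguccgccc
MIR191 hairpin: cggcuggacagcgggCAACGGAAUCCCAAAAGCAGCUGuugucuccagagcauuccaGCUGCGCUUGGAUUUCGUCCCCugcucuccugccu

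The mature miR-191-5p has 23 bases and lies at chr3:49020672-49020694 on the minus strand of hg38. Its hairpin MIR191 spans 92 bases, chr3:49020618-49020709. The hairpin MIR425 spans 87 bases, chr3:49020148-49020234, also on the minus strand, and 383 bases separate the hairpins. Both hairpins were in introns of 4 of the 15 DALRD3 transcripts of GENCODE 44 and overlapped no exon of them, while the representative (MANE Select) transcript of DALRD3 did not span either. MIR191 also lay in an intron of 1 of 6 transcripts of NDUFAF3, a gene of the opposite strand. In the RefSeq table, 0 other human mature miRNAs had the seed of miR-191-5p, and the same held for the seeds of miR-191-3p and miR-425-3p, so no seed relative of these arms was available for comparison.

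The miRNA counts were low, with 39211 to 66345 miRNA reads in EVsoft and 28688 to 30685 in EVstiff, so that every EVsoft library had more of them than every EVstiff library. These totals are far below the read clusters that the labels give as the aim for each sample, and how the other reads were assigned is not given in the sources used here. Among replicates, EVsoft replicate 2 stood apart. It differed from EVsoft replicates 1 and 3 by a chi-square of 6.64 and 8.14 per degree of freedom, against 3.40 between those 2 and 4.02 to 4.99 within EVstiff, so results that rest on it are given with and without it. Levels are given as CPM, read counts scaled to a common library size with TMM factors, which assume that most miRNAs do not change. A count of 0 allows up to 3 counts, worth 44.8 to 108 CPM depending on the library. All 6 markers of squamous epithelium that were looked for had reads, as did 464 of all 471 names. The medium of all groups held bovine serum depleted of EVs. In bulk EV RNA, fewer EVs carrying a miRNA and fewer copies per EV cannot be told apart, and CPM shows only the share of a miRNA among miRNA reads.

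A difference in miR-191-5p between EVsoft and EVstiff was not detectable at this depth and spread. It had 52, 15 and 78 reads in EVsoft replicates 1, 2 and 3, and 35, 24 and 38 reads in EVstiff replicates 1, 2 and 3. In CPM these were 1143, 370 and 1164 in EVsoft, and 1166, 863 and 1370 in EVstiff. EVsoft replicate 2 was far below the other libraries, and the groups overlapped. The mean was 892 ± 453 CPM (SD, n = 3) in EVsoft and 1133 ± 255 CPM (SD, n = 3) in EVstiff, with an exact two-sided permutation p of 0.5 on log2 CPM, where 0.1 is the smallest that 3 against 3 allow. The log2 fold change of EVstiff over EVsoft was 0.32 (SE 0.40), with an adjusted p of 0.579 by edgeR's quasi-likelihood test, and was -0.03 without EVsoft replicate 2. Its 95% interval ran from -0.56 to 1.20, a fold of 0.676 to 2.30, and so held changes on both sides of 0. miRNAs were called when the absolute log2 fold change was above 0.58 and the adjusted p was at most 0.05, and by that rule 18.1% of the 105 miRNAs tested were called.

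**Figure D1:**
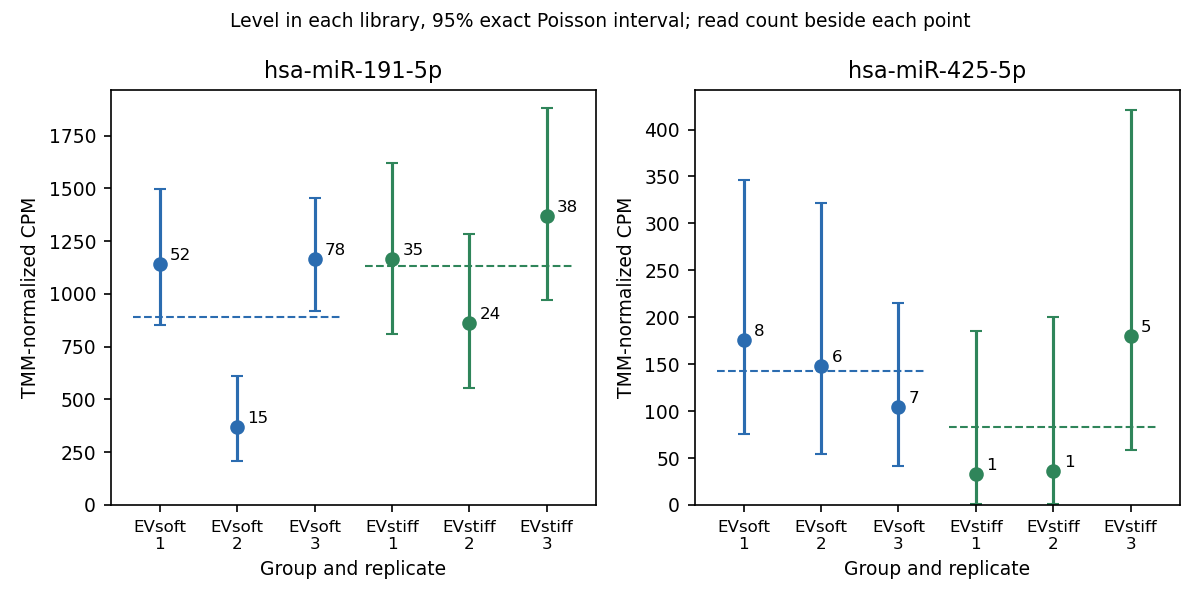
TMM-normalized CPM of hsa-miR-191-5p (left) and hsa-miR-425-5p (right) in each of the 6 libraries, with 95% exact Poisson intervals, the read count beside each point and dashed lines at the group means. EVsoft replicate 2 has the lowest level of miR-191-5p, 370 CPM from 15 reads, and EVstiff replicates 1 and 2 rest on 1 read of miR-425-5p each.

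miR-425-5p was rare, and its groups overlapped too. It had 8, 6 and 7 reads in EVsoft and 1, 1 and 5 reads in EVstiff, 28 in all against 242 for miR-191-5p. The levels were 176, 148 and 104 CPM in EVsoft, and 33.3, 35.9 and 180 CPM in EVstiff. EVstiff replicates 1 and 2 were below all EVsoft libraries, while EVstiff replicate 3 was above all of them. The means were 143 ± 35.9 CPM in EVsoft and 83.2 ± 84.1 CPM in EVstiff (SD, n = 3 each), with an exact two-sided permutation p of 0.4 on log2 CPM. Since miR-425-5p did not pass the filter, its fold change was fitted without a filter over the 464 names with a read, of which 3.23% were called. There its log2 fold change was -0.82 (SE 0.99), the 95% interval ran from -2.76 to 1.12, and the adjusted p of edgeR's quasi-likelihood test was 0.681. This fit pooled its estimate of spread over all names, with 1856 degrees of freedom against 10.2 in the main fit. The SE of miR-191-5p was 0.32 there and 0.40 in the main fit, so intervals of the 2 fits are not alike. Without EVstiff replicate 3 the log2 fold change of miR-425-5p was -2.03, the largest of the values with a single library left out, and not called either.

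The other arm of each hairpin was close to absent. miR-191-3p had 3 reads in EVsoft replicate 3, 1 read in EVstiff replicate 2 and 0 in the other libraries. miR-425-3p had 1 read in each of EVsoft replicates 1 and 2, 2 reads in EVstiff replicate 3 and 0 in the others. With 4 reads in all for each, no comparison of these arms between the groups was possible. By mean CPM, miR-191-5p ranked 70 and miR-425-5p ranked 140 among the 471 names.

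Because both members are counted in the same library, their ratio does not depend on scaling. There were 6.5, 2.5 and 11.1 reads of miR-191-5p for each read of miR-425-5p in EVsoft, and 35, 24 and 7.6 in EVstiff. EVstiff replicate 3 lay within the range of EVsoft, so the groups overlapped. On the log2 scale with 0.5 added to each count, the ratio was 2.42 ± 1.08 in EVsoft and 3.80 ± 0.90 in EVstiff (SD, n = 3 each). The difference of 1.38 had an exact two-sided permutation p of 0.2. miR-425-5p made up 12.7% of the reads of the pair over the EVsoft libraries (exact binomial 95% interval 8.00 to 18.7%) and 6.73% over the EVstiff libraries (2.75 to 13.4%). These intervals overlapped and cover counting error only, not the spread between libraries.

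As a measure of stability, the SD of log2 CPM over all 6 libraries was set beside that of miRNAs within 2-fold of the same mean CPM. miR-191-5p varied more than most miRNAs of like abundance, with an SD of 0.64 against a median of 0.42 (range 0.18 to 1.41) over the 49 other tested miRNAs in its window. Of these 49, 40 (81.6%) had a lower SD, and 8 of 49 (16.3%) without EVsoft replicate 2. That library held the most extreme level of miR-191-5p, so leaving it out was bound to lower this SD. The miRNAs of the window lost the same library, not each its own most extreme one, so the 16.3% favours miR-191-5p. With any other single library left out, the share was 80.0 to 93.9%. Within groups, where any effect of stiffness drops out, the SD of miR-191-5p was 0.66 against a median of 0.31, and 45 of the 49 were lower. Without EVsoft replicate 2 its SD within groups was 0.26, and the window was not compared there. With all libraries its coefficient of variation was 35.0%, against a median of 30.0%. Counting error alone gives an SD of 0.24 at these reads, so the observed spread was 2.69 times that of counting, compared with a median of 1.64 times for its window. By the size of the difference between group means of log2 CPM, 0.46 for miR-191-5p, 28 of the 49 were smaller. This measure is not the fitted log2 fold change of 0.32.

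The steadiest miRNAs in that window were miR-1180-3p, miR-146b-5p and miR-7-5p, with SDs of 0.18, 0.18 and 0.19. miR-1180-3p had 56, 51 and 67 reads in EVsoft and 45, 35 and 34 in EVstiff. The least steady were miR-203a-3p, a miRNA of squamous epithelium, with an SD of 1.41, miR-486-5p, a miRNA of red blood cells, with 1.02, and miR-20a-5p, a member of the miR-17-92 cluster, with 0.81. miR-203a-3p had 61, 6 and 96 reads in EVsoft and 54, 93 and 51 in EVstiff, so that it too was lowest in EVsoft replicate 2.

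**Figure D2:**
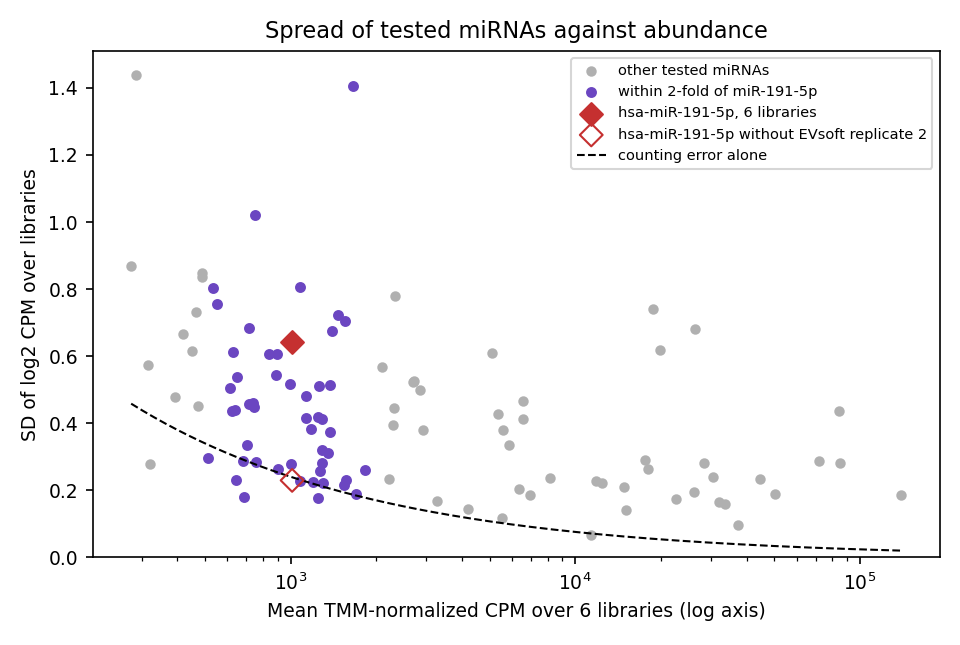
SD of log2 CPM over the 6 libraries against mean TMM-normalized CPM (log axis) for the 105 tested miRNAs, with the 49 within 2-fold of miR-191-5p in purple and the SD expected from counting error as a dashed line. miR-191-5p is at 0.64 with all libraries (filled diamond) and at 0.23, near the counting line, without EVsoft replicate 2 (open diamond). The open diamond is placed at the mean CPM over 6 libraries, and all other points and the line keep EVsoft replicate 2.

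The spread of miR-191-5p rested on EVsoft replicate 2. At its mean level over all libraries, 41.1 reads would have been counted there, and 15 were found (exact Poisson 95% interval 8.40 to 24.7). In this library miR-191-5p was 1.52 lower on the log2 scale than the mean of the other EVsoft libraries, and of the 104 other tested miRNAs only miR-203a-3p lay further down. miR-30e-3p was the next, with 21, 5 and 21 reads in EVsoft. The median absolute deviation over tested miRNAs was 0.26 in this library, against 0.17 and 0.20 in the other EVsoft libraries and 0.20 to 0.27 in the EVstiff libraries, which have fewer reads. Without EVsoft replicate 2, the SD of miR-191-5p was 0.23, which was 1.01 times counting error. miR-191-5p deviated most in that library, so a fall in its SD was set by leaving that library out. The log2 fold change without it was -0.03 (SE 0.30, 95% interval -0.66 to 0.61), with an adjusted p of 0.953 by edgeR's quasi-likelihood test.

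Levels of marker miRNAs were set beside those of miR-191-5p. Of 8 miRNAs listed for serum and blood, 6 had reads, and their summed level was 3538, 5892 and 3224 CPM in EVsoft and 6828, 9560 and 7030 CPM in EVstiff. It was highest in replicate 2 of each group, the same libraries in which miR-191-5p was lowest of its group. Most of these reads were of miR-122-5p, a miRNA of liver, and miR-486-5p. The 6 markers of squamous epithelium summed to 70929, 61040 and 68058 CPM in EVsoft and 53026, 54775 and 54903 CPM in EVstiff, so replicate 2 was the lowest of EVsoft but not of EVstiff. Members of this sum differed in direction between the groups. In EVstiff miR-200c-3p, miR-200a-3p and miR-200b-3p were called lower (log2 fold changes -1.10, -1.12 and -0.73). miR-205-5p (0.20) and miR-203a-3p (1.21) were higher and not called. miR-141-3p was not among the tested miRNAs and had 13, 16 and 25 reads in EVsoft and 6, 2 and 2 in EVstiff. Of 6 markers of stroma and endothelium, 5 had reads, with sums of 198, 98.6 and 224 CPM in EVsoft and 200, 216 and 252 CPM in EVstiff, where again replicate 2 was the lowest of EVsoft only. The part of these sources in the level of miR-191-5p was not tested.

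For miR-425-5p no tested miRNA lay within 2-fold of its mean CPM, as the lowest mean of any tested miRNA was 275 CPM. Beside the 76 other names with a read in its window, its SD of log2 CPM was 0.67 against a median of 0.76 (range 0.20 to 1.15), and 26 of the 76 (34.2%) were lower. On 1 to 8 reads a library these SDs depend on the prior count added before the log. With a prior count of 2 the spread was 0.94 times that of counting error, beside a median of 0.95 times in its window, and with 0.5 it was 1.33 times, beside 1.61 times. The steadiest names there were miR-378d, let-7a-3p and miR-24-2-5p, with SDs of 0.20, 0.34 and 0.38, and the least steady were miR-769-5p, miR-187-3p and miR-365a-5p, with 1.15, 1.12 and 1.10.

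The tested miRNAs whose pattern was most like that of each member were found by the SD of their log2 ratio to it over the 6 libraries. For miR-191-5p these were miR-30e-3p (0.34), miR-2110 (0.36), miR-320b (0.39), miR-210-3p (0.47) and miR-320a (0.47), against a median of 0.73 over 104 miRNAs. The closest, miR-30e-3p, had 21, 5 and 21 reads in EVsoft and 7, 9 and 12 in EVstiff. In all 5 the lowest EVsoft CPM was that of replicate 2, the library on which the spread of miR-191-5p rested. Likeness is not given here without that library. For miR-425-5p they were miR-16-5p (0.15), miR-629-5p (0.31), miR-103a-3p (0.36), miR-98-5p (0.39) and miR-155-5p (0.41), against a median of 0.71 over 105. Counting error alone gives miR-425-5p an SD of 0.72, above each of these, so they cannot show a close match. At so few reads these SDs also depend on the prior count. miR-16-5p, also a usual reference miRNA, had 31, 22 and 29 reads in EVsoft and 5, 7 and 20 in EVstiff, so that, as for miR-425-5p, EVstiff replicate 3 was the highest of EVstiff. Such shared lows and highs follow in part from the choice by likeness, so they are not a separate result. The values of a library share its depth and scaling factor, and with few reads these ratios are known with little precision.

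Other miRNAs in use as references give a scale for both members. Of 25 listed from general knowledge, all were counted and 20 were tested. Of these, 2 were called higher in EVstiff, against 10.5% of all tested, and 0 were called lower, against 7.62%. miR-423-5p had a log2 fold change of 1.18 (SE 0.15, adjusted p = 0.000359) and miR-320a one of 0.72 (SE 0.13, adjusted p = 0.00295) by edgeR's quasi-likelihood test. let-7i-5p had an adjusted p of at most 0.05 with a log2 fold change of -0.42, short of the fold needed for a call. In 10 of the 20 the CPM values of EVsoft and EVstiff were apart, against 47.6% of all tested. The median log2 fold change of the list was -0.19, beside -0.04 over all tested, and the median absolute value was 0.28, beside 0.39.

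How steady miR-191-5p was among these references depended on EVsoft replicate 2. With all libraries, its SD of 0.64 was above that of 18 of the 20, the exceptions being miR-423-5p (0.68) and miR-16-5p (0.73), while the median of the list was 0.25. Without EVsoft replicate 2 its SD of 0.23 was above that of 8 of the 20, and the median of the list was 0.27. The 20 lost the same library, not each its own most extreme one, so counts without that library favour miR-191-5p. Its fold change had a larger SE than 17 of the 20, and 11 of the 20 had a smaller absolute fold change. miR-26a-5p had the lowest SD of the list, 0.07, with 508, 475 and 749 reads in EVsoft, 318, 337 and 319 in EVstiff and a log2 fold change of 0.01. More abundant miRNAs carry less counting error, so a fairer comparison is with the 5 references in the window of miR-191-5p. They were miR-23a-3p (0.22), miR-26b-5p (0.28), miR-186-5p (0.51), miR-103a-3p (0.54) and miR-93-5p (0.61), each with a lower SD over the 6 libraries. Without EVsoft replicate 2 only miR-23a-3p (0.19) of these 5 had a lower SD than miR-191-5p.

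**Figure D3:**
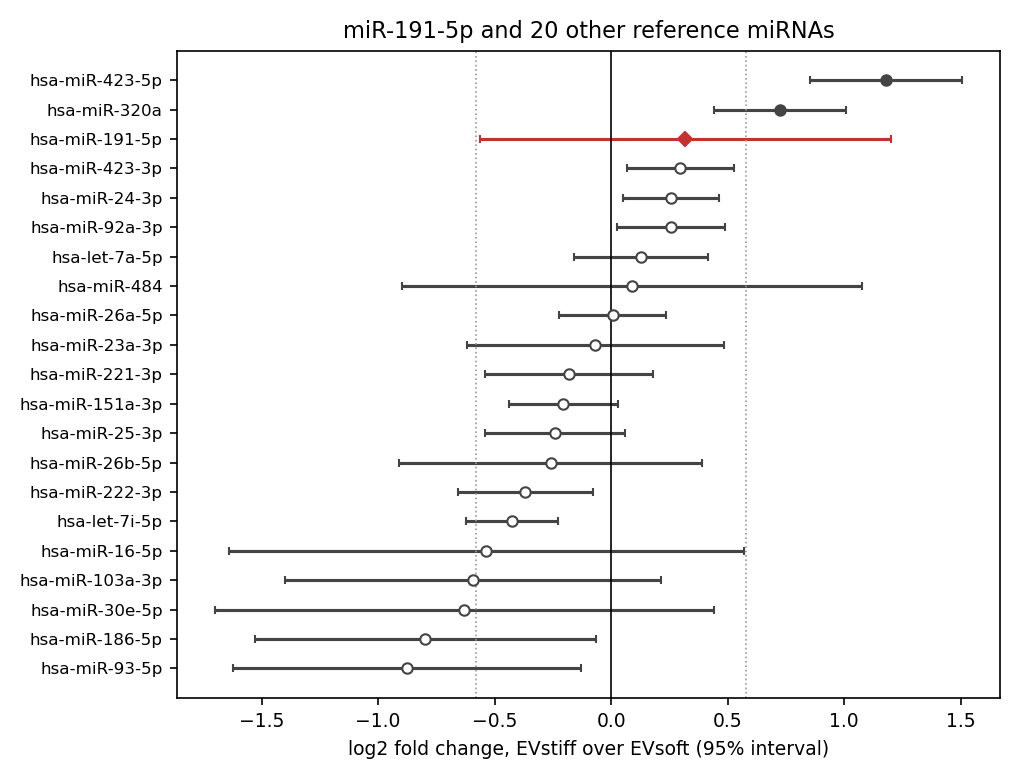
Log2 fold change of EVstiff over EVsoft with its 95% interval for miR-191-5p (diamond) and the 20 other tested reference miRNAs, ordered by fold change, with filled circles for the called ones and dotted lines at the fold threshold of 0.58 in each direction. Only miR-423-5p and miR-320a are called. The interval of miR-191-5p, -0.56 to 1.20, spans 0 and the upper dotted line and ends just short of the lower one.

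A set of miRNAs picked for qRT-PCR in the same EVs was next read against each member. The study took them from the miRNAs that differed in its own sequencing of these EVs. Groups that do not overlap are therefore not separate support for a difference. Under TMM 47.6% of all tested miRNAs did not overlap in CPM, and the share relative to a member was not computed. miR-146a-5p, a miRNA induced in inflammation, had log2 ratios to miR-191-5p of 4.56, 6.10 and 4.55 in EVsoft and 3.17, 3.55 and 2.95 in EVstiff. All EVstiff libraries were below all EVsoft libraries, with a difference in means of -1.85, where the fit with TMM scaling gave a log2 fold change of -1.36. Without EVsoft replicate 2 this difference was -1.34, and with the other libraries left out one at a time it reached -2.11. miR-125a-5p, which has the seed of miR-125b-5p, had ratios of 0.88, 3.66 and 1.41 in EVsoft and 0.04, 0.58 and 0.07 in EVstiff. Its groups did not overlap, with a difference of -1.75 beside -1.35 under TMM. Without EVsoft replicate 2 it was -0.91, smaller than under TMM, and without EVsoft replicate 1 it was -2.31.

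For miR-122-5p and miR-1246 the groups overlapped with miR-191-5p as the reference. Under TMM their log2 fold changes were 1.03 and 0.53, each with an adjusted p of 0.00295 by edgeR's quasi-likelihood test, the latter short of the fold needed for a call. The ratios of miR-122-5p were 1.40, 3.51 and 1.24 in EVsoft and 2.45, 3.10 and 2.25 in EVstiff, a difference of 0.55. Those of miR-1246, a name that overlaps fragments of other RNA, were 3.70, 5.18 and 3.63 in EVsoft and 4.20, 4.51 and 3.89 in EVstiff, a difference of 0.03. In all 4 miRNAs the highest EVsoft ratio was that of replicate 2. These ratios share the low count of miR-191-5p in that library, 15 reads, so this is not a separate result for each miRNA. The difference for miR-1246 changed sign when single libraries were left out, with a range of -0.24 to 0.54, and that for miR-122-5p ranged from 0.15 to 1.28, both highest without EVsoft replicate 2.

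Relative to miR-425-5p the same miRNAs read otherwise. The log2 difference between EVstiff and EVsoft was -0.47 for miR-146a-5p and -0.38 for miR-125a-5p, with overlapping groups, and 1.41 for miR-1246, also overlapping. For miR-122-5p it was 1.93, and here the groups did not overlap. These differences rest on the 1, 1 and 5 reads of miR-425-5p in EVstiff.

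**Figure D4:**
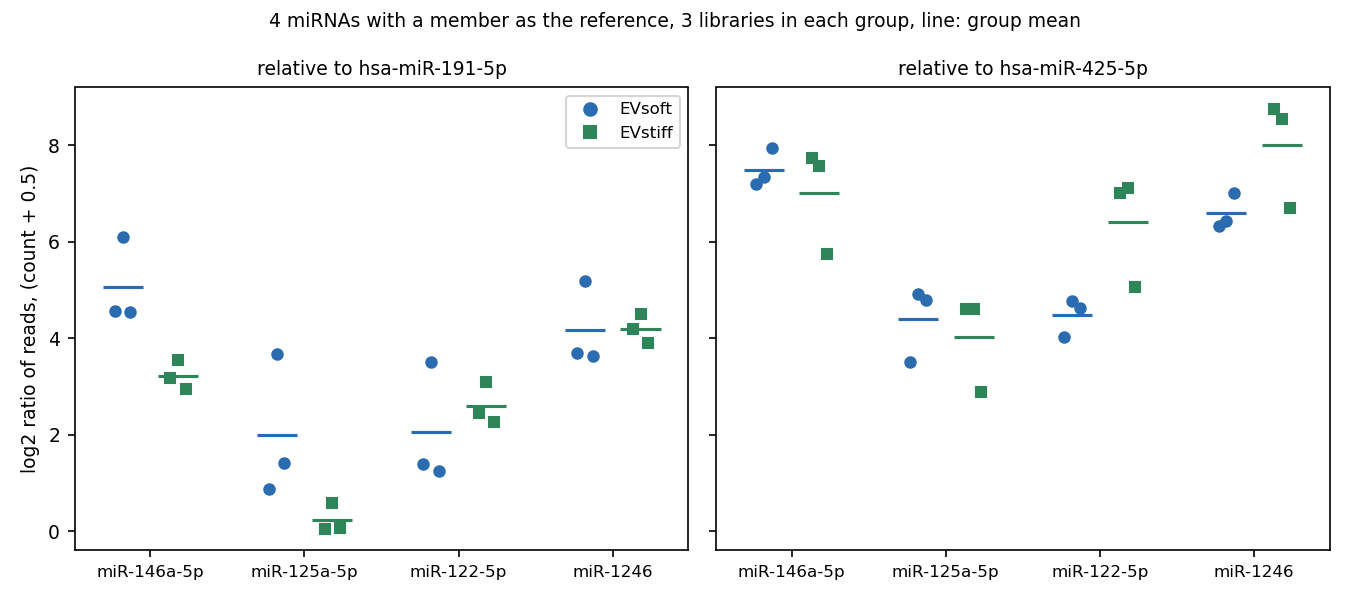
Log2 ratio of reads (0.5 added to each count) of miR-146a-5p, miR-125a-5p, miR-122-5p and miR-1246 to hsa-miR-191-5p (left) and to hsa-miR-425-5p (right) in 3 EVsoft and 3 EVstiff libraries, with lines at the group means. On the left the highest EVsoft point of each miRNA is replicate 2, where the shared reference miR-191-5p is lowest. There miR-146a-5p and miR-125a-5p do not overlap between the groups, while on the right only miR-122-5p does not.

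Over all tested miRNAs, a single member as the only scaling reference left no calls. edgeR's quasi-likelihood test called 0 of 105 with miR-191-5p as the reference, where 15 had an unadjusted p under 0.05, and limma-voom called 0 with 7 at that level. TMM scaling called 19, with 42 at an unadjusted p under 0.05. The median SE of a log2 fold change was 0.26 with TMM and 0.65 with miR-191-5p. With miR-425-5p as the reference the median SE was 0.79 and edgeR called 0, with 23 at an unadjusted p under 0.05. With miR-191-5p as the reference and EVsoft replicate 2 left out, the median SE was 0.31 and 4 of 104 were called, all of them among the 19. Chosen after their values were seen, these are miR-200c-3p, miR-146a-5p and miR-181a-5p, lower in EVstiff by 1.10, 1.32 and 1.16 on the log2 scale, and miR-423-5p, higher by 1.08. Leaving out EVsoft replicate 1 or 3 gave 1 call each, and leaving out any EVstiff library gave 0.

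**Figure D5:**
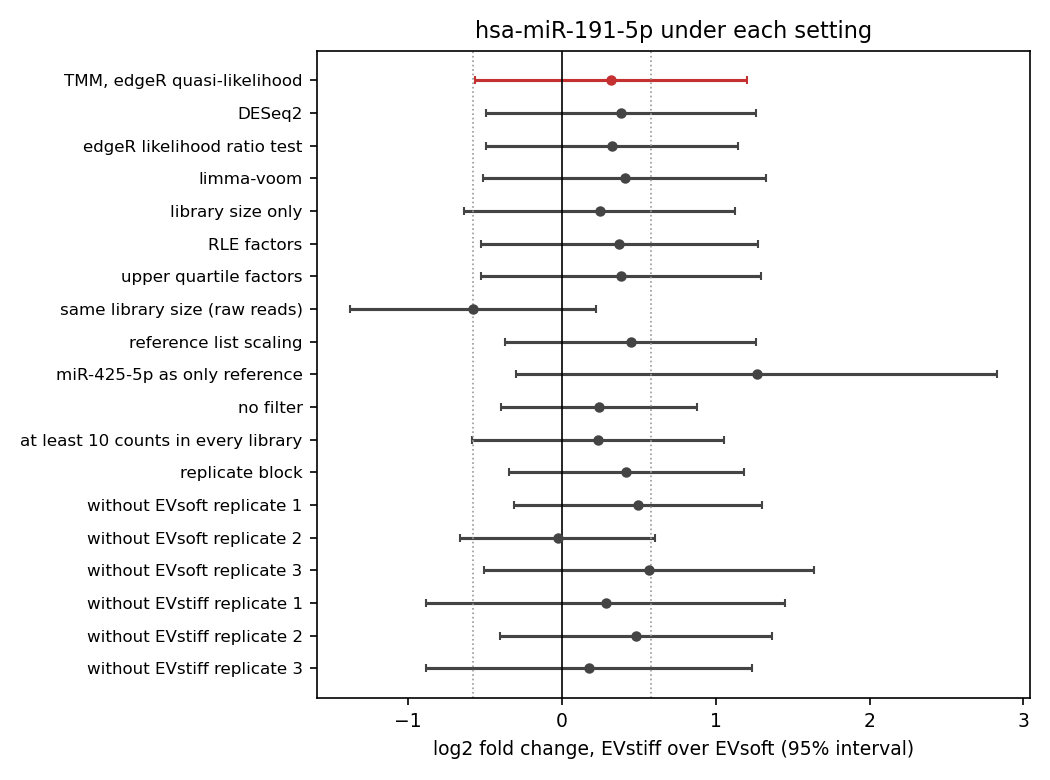
Log2 fold change of hsa-miR-191-5p, EVstiff over EVsoft, with its 95% interval under TMM scaling (top, red) and each alternative test, scaling, filter and left-out library, with dotted lines at the fold threshold of 0.58 in each direction. Every interval includes 0, and the estimate is below 0 with raw reads and without EVsoft replicate 2.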

How the data were processed

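Libraries of small RNA from Cal27 spheroid EVs were grouped by the matrix named in their labels. The authors deposited raw read counts per miRNA, for which exceRpt served as quality control and RefSeq defined the features. The submitters' processing notes name the build hg38. The aligner and its version are not given in the sources used here, nor is a step that removes duplicates. By the study's account, replicates are separate biological repeats.

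The tools were R 4.3.3, edgeR 4.0.16 (filterByExpr, TMM, glmQLFit, glmQLFTest, Benjamini-Hochberg adjustment, group as the only term), limma 3.58.1 and DESeq2 1.42.0, after the code was tested on simulated data. A call needed an adjusted p of 0.05 or less and a log2 fold change beyond 0.58 in either direction. Log2 CPM used a prior count of 2 and ratios of reads a pseudocount of 0.5. Intervals and floors cover counting error only. No library was a copy of another (chi-square of 3.40 or more per degree of freedom in each pair). The main design assumed that both members could be tested, but miR-425-5p did not pass filterByExpr, so it was fitted without a filter and its window held all names with a read.

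Both members, and the lists of reference and marker miRNAs, were chosen with earlier results of these data known. Named were both members and their other arms, the 5 tested miRNAs most like each, the 3 with the lowest and the 3 with the highest SD in each window, reference miRNAs and the 4 miRNAs of the study's qRT-PCR. Alternatives were other tests, scalings, filters, windows and pseudocounts, a replicate block and leaving out each library. Other measurements of the study were not analysed here.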

Additional observations from a re-analysis of the deposited data

How the results depend on the processing

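miR-191-5p was called under none of its 18 alternatives (adjusted p 0.217 to 0.953), and its log2 fold change kept its sign in 16. It was -0.58 with raw reads, where the deeper EVsoft libraries are not scaled and the median of all miRNAs was -0.89, and -0.028 without EVsoft replicate 2. With single libraries left out it ranged from -0.03 to 0.57. miR-425-5p stayed below 0 in its 16 alternatives, from -2.03 to -0.55, and was not called. It was not tested with a minimum of 10 counts, and DESeq2 gave it no adjusted p. The difference in the log2 ratio of the members ranged from 0.79 to 1.87 with single libraries left out. The number of miRNAs called was 57 with raw reads, all lower, and 0 with miR-191-5p (limma-voom too) or miR-425-5p as the only reference. With miR-191-5p as the reference, chosen after seeing the data, leaving out single libraries gave 0 to 4 calls, and with TMM it gave 13 to 19. Scaling by library size alone split its 19 calls into 8 higher and 11 lower, where TMM gave 11 and 8. Of the reference list, 14 were called with raw reads, 4 with a minimum of 10 counts, 0 with either member as the only reference and 2 whichever library was left out. Of its 20 tested members, 8 to 19 had a lower SD than miR-191-5p with single libraries left out, the fewest without EVsoft replicate 2. The SD of miR-191-5p ranged from 0.23 to 0.74 and the share of its window with a lower SD from 16.3 to 93.9% with single libraries left out, both lowest without EVsoft replicate 2. That library held its most extreme value, so these lows were in part set by the choice of library. The SD of miR-425-5p was 0.79 with raw reads, 0.95 with a prior count of 0.5 and 0.59 to 0.72 with single libraries left out. The share of its window with a lower SD was 47.4% with raw reads, 44.6% with a 4-fold window and 29.3 to 45.9% with single libraries left out. Beyond what these settings change by construction, the cause was not tested. Libraries of the same replicate number showed little common deviation over the tested miRNAs (correlations of -0.13, 0.13 and -0.03). Such values cannot settle whether these libraries shared a culture run, which the labels do not say. With a replicate block the log2 fold change was 0.42 for miR-191-5p (adjusted p 0.368) and -0.96 for miR-425-5p (adjusted p 0.916), the difference in log2 ratio was 1.38 (exact sign-flip p 0.5), 16 miRNAs were called, and 2 of the reference list. Between 15 and 78 reads of miR-191-5p and 1 to 8 of miR-425-5p a library set the precision.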
